A study of Mus musculus with 8 samples.

Results

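The interferon-induced genes Stat2, Irf1, Irf7, Ifit1, Ifit2, Ifit3, Mx2 and Oasl2 were measured in mouse testis by 11 of the 41174 non-control probes of an Agilent single-colour array. A probe was included when the array's own annotation gave it 1 of these 8 names, whatever its signal. RNA of whole testicular cells came from males of 2 genotypes, 4 wild type (VRK1+/+) and 4 mutant (VRK1-/-), with 1 array for each sample. Vrk1, the gene altered in the mutants, codes for a nuclear protein kinase. Neither the type of Vrk1 allele nor strain, age or litter is stated in the sources used here. The labels call the samples biological replicates from independent experiments without naming animals, so the p-values measure the spread between these samples only.

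Levels are given as the log2 of a probe's signal over the 75th percentile of its array, so a probe at 0 is as bright as that percentile. A floor at -6.12 replaced lower and negative signals. The 75th percentile was 680 to 790 on the wild-type and 928 to 1124 on the mutant arrays, and 73.2% to 77.5% and 83.3% to 86.5% of features lay well above background. All wild-type arrays shared 1 slide and scan and all mutant arrays another, so genotype, slide and scan cannot be told apart in any result here. Vrk1 itself, on probe A_51_P102339, fell from -0.71 ± 0.16 to -2.97 ± 0.19 (SD, n = 4 each), a difference of -2.26 with a limma adjusted p of 0.000165, in the direction of the labels. The germ cell markers Prm1, Ldhc and Sycp3, the Sertoli markers Wt1 and Sox9 and the Leydig marker Insl3 were well above background on all 8 arrays, so defining markers of the labelled tissue were present. Because whole testis was measured, fewer cells of a type and less RNA per cell cannot be told apart.

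Interferons are secreted proteins released when cells sense viral or misplaced nucleic acid. Type I interferons bind the receptor of Ifnar1 and Ifnar2, whose kinases Jak1 and Tyk2 activate Stat2. Stat2 acts in a complex with Irf9 at a promoter sequence called the interferon-stimulated response element (ISRE), whereas interferon gamma acts at the gamma-activated site (GAS). Stat2, Irf1 and Irf7 are transcription factors of this response that are themselves induced by it, and the Ifit, Mx and Oas-like proteins are its antiviral effectors. In the testis, macrophages, Sertoli cells and Leydig cells are known to carry out antiviral responses, and germ cells respond more weakly.

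Promoters of 5 of the genes are shown so that the ISRE and GAS letters can be seen both in genes that passed the test below and in genes that did not. RefSeq windows (GRCm38.p6) of 300 bases, from 250 before to 50 after an annotated gene start, were found for 7 of the 8 genes, 9 windows in all. Each window was searched on both strands for the ISRE string, GAAA followed by any 2 bases and GAAA, and for the GAS string TTCNNNGAA. These letter strings overlapped nowhere in these windows. The windows are those of Ifit1 (chr19:34640639-34640938), Ifit3 (chr19:34583279-34583578), Stat2 (chr10:128270248-128270547), Irf1 (chr11:53769764-53770063) and Oasl2 (chr5:114896684-114896983), all on the plus strand, and capitals mark the matches.
Ifit1: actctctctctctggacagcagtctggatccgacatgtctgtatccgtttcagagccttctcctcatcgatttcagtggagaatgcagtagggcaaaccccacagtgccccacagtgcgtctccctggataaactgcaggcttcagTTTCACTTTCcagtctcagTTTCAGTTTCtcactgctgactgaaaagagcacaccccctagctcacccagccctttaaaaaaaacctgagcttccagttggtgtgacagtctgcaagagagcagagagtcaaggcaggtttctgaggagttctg
Ifit3: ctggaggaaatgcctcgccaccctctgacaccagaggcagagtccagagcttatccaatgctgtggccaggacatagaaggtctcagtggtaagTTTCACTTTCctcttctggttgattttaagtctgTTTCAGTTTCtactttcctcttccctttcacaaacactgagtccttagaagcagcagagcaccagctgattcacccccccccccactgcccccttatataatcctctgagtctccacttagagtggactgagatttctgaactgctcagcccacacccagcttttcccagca
Stat2: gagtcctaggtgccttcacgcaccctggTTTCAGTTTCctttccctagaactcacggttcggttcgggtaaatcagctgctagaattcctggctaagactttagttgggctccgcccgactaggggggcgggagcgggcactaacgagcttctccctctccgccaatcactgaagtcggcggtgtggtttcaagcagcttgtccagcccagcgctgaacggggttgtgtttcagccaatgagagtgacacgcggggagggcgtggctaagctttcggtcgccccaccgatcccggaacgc
Irf1: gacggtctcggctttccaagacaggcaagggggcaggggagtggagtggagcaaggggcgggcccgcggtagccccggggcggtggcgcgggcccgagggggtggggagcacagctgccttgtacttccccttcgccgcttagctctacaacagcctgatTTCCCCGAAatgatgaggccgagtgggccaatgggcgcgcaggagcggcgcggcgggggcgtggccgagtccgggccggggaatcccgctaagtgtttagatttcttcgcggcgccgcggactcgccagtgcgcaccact
Oasl2: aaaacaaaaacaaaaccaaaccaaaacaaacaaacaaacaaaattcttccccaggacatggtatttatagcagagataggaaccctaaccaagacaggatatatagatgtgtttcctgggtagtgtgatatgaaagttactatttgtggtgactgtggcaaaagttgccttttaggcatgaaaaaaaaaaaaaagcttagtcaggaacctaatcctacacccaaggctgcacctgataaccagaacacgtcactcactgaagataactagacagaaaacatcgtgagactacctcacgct

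Ifit1 held 2 ISRE matches, at -104 to -95 and -85 to -76 from the start, and Ifit3 held 2, at -156 to -147 and -122 to -113. In both genes the upstream match read TTTCACTTTC and the downstream match TTTCAGTTTC on the printed strand. Stat2 held 1 ISRE match, at -222 to -213, with the letters TTTCAGTTTC. Irf1 held 1 GAS match, TTCCCCGAA at -90 to -82, and the first of the 2 Ifit2 windows held TTCCTGGAA at -241 to -233. The windows of Irf7 and Oasl2, the second window of Irf1 and the second window of Ifit2 held neither string. Of 32851 windows in the table, 3.44% held the ISRE string and 8.30% the GAS string. Of the 27025 genes with a window, 3.99% had at least 1 window with the ISRE string and 9.55% with the GAS string.

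Of the 11 probes, 8 probes of 7 genes were bright enough to be tested, and 3 of them were higher in the mutant testes: A_51_P146103 of Irf1, A_51_P359570 of Ifit3 and A_51_P387123 of Oasl2. None of the 8 was lower, at an adjusted p or at an unadjusted p under 0.05 in limma. A probe was tested when Feature Extraction marked it as well above background on 4 or more of the 8 arrays, and it was called at a Benjamini-Hochberg adjusted p under 0.05 over all 33718 probes tested. By the same rule 21.2% of all tested probes were higher and 10.8% were lower in the mutant. In numbers, 7160 probes were higher and 3655 lower, whereas median scaling called 4491 higher and 8768 lower. The 3 of 8 probes stand beside that share, and with so few probes the count is not a result that sets these genes apart.

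**Figure D1:**
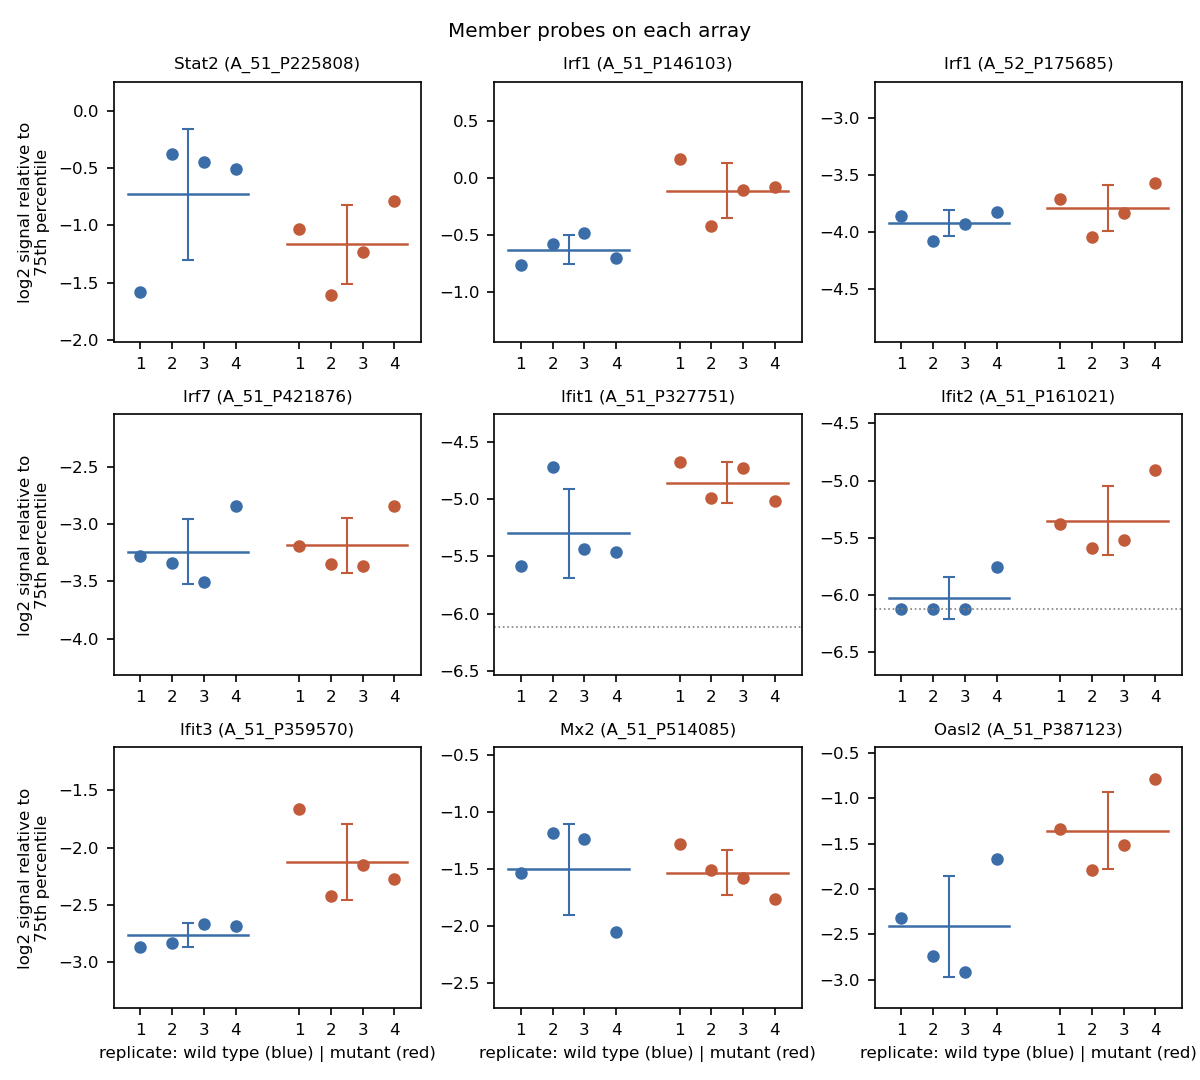
Log2 of the signal over the array's 75th percentile (vertical axis) of 9 of the 11 probes, for replicates 1 to 4 of wild type (blue) and mutant (red), with the mean (line) and SD (bars) and the floor at -6.12 (dotted, where in range). The genotypes do not overlap for Irf1 A_51_P146103, Ifit2 A_51_P161021 and Ifit3, and they overlap for the other 6 probes shown.

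Stat2, a signal transducer below the type I receptor, was measured by probe A_51_P225808 at chr10:127793622-127793681 (mm7). Its log2 level was -1.58, -0.38, -0.45 and -0.50 in wild-type replicates 1 to 4 and -1.03, -1.61, -1.23 and -0.79 in mutant replicates 1 to 4. Wild-type replicate 1 was low, within the mutant range, while the other wild-type arrays lay above all mutant arrays. The means were -0.73 ± 0.57 and -1.17 ± 0.35 (SD, n = 4 each), and the difference of -0.44 (SE 0.29, 95% interval -1.08 to 0.20) did not pass (limma adjusted p = 0.251). Without wild-type replicate 1 the difference was -0.72 with an adjusted p of 0.0241, which is a call of lower. With limma array weights it was -0.74 with an adjusted p of 0.00671. Of all 33718 probes, 3590 were called lower without that array and 8424 with array weights, against 3655 in the main fit.

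Irf1, a transcription factor that interferon gamma induces, had 2 probes. On A_51_P146103 (chr11:53733970-53734029, mm7) the log2 level was -0.76, -0.58, -0.48 and -0.70 in wild type and 0.16, -0.42, -0.10 and -0.08 in the mutant. Every mutant array lay above every wild-type array, with mutant replicate 2 the closest to them. The means were -0.63 ± 0.13 and -0.11 ± 0.24 (SD, n = 4 each), a difference of 0.52 (SE 0.15, 95% interval 0.17 to 0.86, limma adjusted p = 0.0308), or 1.43-fold. The call ended in 6 of the 8 fits that left out 1 array, where the difference stayed between 0.42 and 0.62 and the adjusted p ran from 0.0169 to 0.0794. It held when wild-type replicate 4 or mutant replicate 2 was the array left out.

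The other Irf1 probe, A_52_P175685 (chr11:53730701-53730846, mm7), lay 3.1 kb away and is listed with a span of 146 bases for a probe of 60. Its log2 level was -3.86, -4.08, -3.93 and -3.82 in wild type and -3.71, -4.04, -3.83 and -3.57 in the mutant, with overlap. The difference was 0.13 (95% interval -0.19 to 0.45, limma adjusted p = 0.481), and it turned negative under median scaling (-0.08), cyclic loess (-0.19), quantile normalization (-0.20) and normexp background correction (-0.35). The 2 probes of Irf1 therefore differed in their call.

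Irf7, the factor that amplifies transcription of the alpha interferons, was measured by A_51_P421876 on chromosome 7 (137682028 to 137682378, mm7, a listed span of 351 bases). Its log2 level was -3.28, -3.34, -3.50 and -2.84 in wild type and -3.19, -3.35, -3.36 and -2.84 in the mutant. The genotypes covered the same range, and replicate 4 was the highest array in each. The means of -3.24 ± 0.28 and -3.19 ± 0.24 (SD, n = 4 each) differed by 0.05 (95% interval -0.36 to 0.47, limma adjusted p = 0.837), with negative values of -0.16 under median scaling, -0.22 under quantile normalization, -0.19 under cyclic loess and -0.25 under normexp.

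The Ifit genes encode tetratricopeptide repeat proteins, several of which bind viral RNA, and they lie together on chromosome 19. Ifit1, which recognises RNA with foreign caps, was a dim signal on A_51_P327751 (chr19:34350610-34350669, mm7), well above background on 2 of 4 wild-type and 4 of 4 mutant arrays. Its log2 level was -5.58, -4.72, -5.43 and -5.46 in wild type and -4.68, -4.99, -4.73 and -5.02 in the mutant. Wild-type replicate 2 lay inside the mutant range and the other wild-type arrays below it. The means were -5.30 ± 0.39 and -4.85 ± 0.17 (SD, n = 4 each), and the difference of 0.44 (SE 0.20, 95% interval -0.01 to 0.90) did not pass (limma adjusted p = 0.114). Without wild-type replicate 2 it was 0.64 with an adjusted p of 0.0238, a call of higher. It was negative under cyclic loess (-0.04), quantile normalization (-0.13) and normexp (-0.40).

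Ifit2, an Ifit protein linked to cell death and to restriction of viral translation, had 2 probes 1.9 kb apart and neither was tested. On A_51_P161021 (chr19:34277058-34277117, mm7) 3 wild-type arrays were at the floor of -6.12 and the fourth at -5.75, and no wild-type array was well above background. The mutant log2 levels were -5.38, -5.59, -5.52 and -4.91, all above the wild-type arrays, but only replicate 4 was well above background. The means were -6.03 in wild type and -5.35 in the mutant, 1.60-fold apart with the floor in place. The floor and the dim signals leave that size uncertain. The floor was the highest, over the 8 arrays, of each array's lowest level among features well above background. Ifit2 A_52_P542388 was at the floor on all 8 arrays.

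Ifit3, a partner that stabilises Ifit1 in complexes, was the Ifit gene that passed the test. On A_51_P359570 (chr19:34289919-34289978, mm7) the log2 level was -2.87, -2.83, -2.67 and -2.68 in wild type and -1.66, -2.42, -2.15 and -2.27 in the mutant. The genotypes did not overlap, and mutant replicate 1 was the highest. The means were -2.76 ± 0.10 and -2.13 ± 0.33 (SD, n = 4 each), a difference of 0.64 (SE 0.18, 95% interval 0.24 to 1.03, limma adjusted p = 0.0235), or 1.55-fold. The adjusted p rose to 0.0568 without wild-type replicate 2 and to 0.0565 without mutant replicate 3, which ended the call. The second Ifit3 probe, A_52_P663686 (chr19:34313887-34313946, mm7), lay 23.9 kb away and was at the floor on all 8 arrays. Ifit3b, a near copy, neighbours Ifit3 in RefSeq, so a signal shared between them could not be separated.

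Mx2, of the dynamin-like Mx GTPases, is annotated by RefSeq as a transcribed pseudogene in the reference strain. On A_51_P514085 (chr16:97944478-97944537, mm7) the log2 level was -1.54, -1.18, -1.24 and -2.05 in wild type and -1.28, -1.51, -1.58 and -1.76 in the mutant. The mutant range lay inside the wild-type range, and replicate 4 was the lowest array in each genotype. The means of -1.50 ± 0.40 and -1.53 ± 0.20 (SD, n = 4 each) differed by -0.03 (95% interval -0.49 to 0.43, limma adjusted p = 0.922).

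Oasl2, an oligoadenylate synthetase-like protein with ubiquitin-like domains, had the largest difference of the 8 tested probes. On A_51_P387123 (chr5:114132992-114133051, mm7) the log2 level was -2.31, -2.74, -2.92 and -1.67 in wild type and -1.34, -1.79, -1.51 and -0.79 in the mutant. Replicate 4 was the highest array in both genotypes, and wild-type replicate 4 lay above mutant replicate 2, so the genotypes overlapped by 1 array. The means were -2.41 ± 0.56 and -1.36 ± 0.42 (SD, n = 4 each), a difference of 1.05 (SE 0.30, 95% interval 0.39 to 1.72, limma adjusted p = 0.0252), or 2.08-fold. The call ended in 5 of the 8 fits that left out 1 array, with differences from 0.86 to 1.30 and adjusted p from 0.00925 to 0.0661. The fits without wild-type replicate 1, wild-type replicate 4 and mutant replicate 2 kept it. With no filter on dim probes Oasl2 did not pass (limma adjusted p = 0.0631). Replicate number equals the position on the slide.

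**Figure D2:**
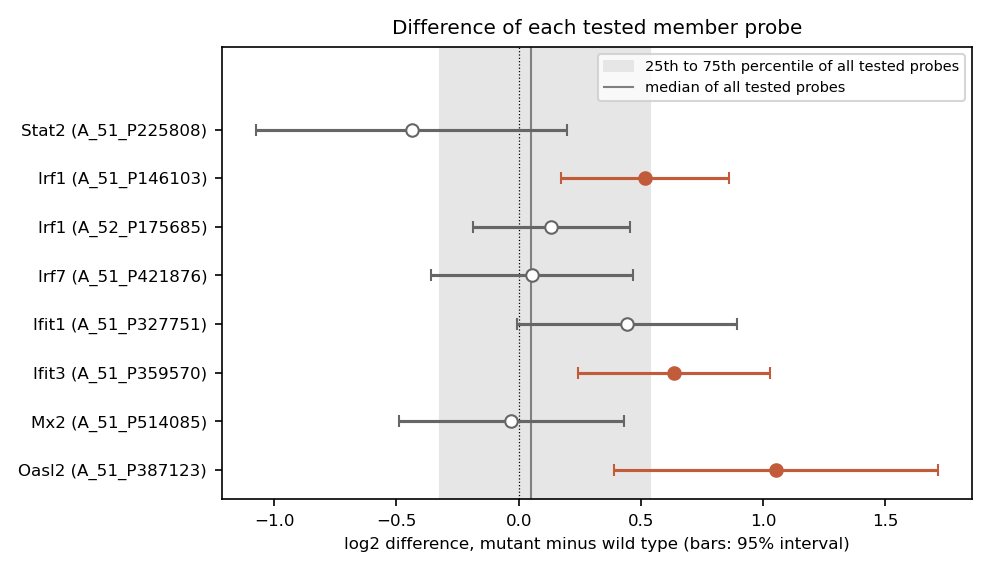
Log2 difference, mutant minus wild type (horizontal axis), of the 8 tested probes, with the 95% interval as bars. Filled red points passed (limma adjusted p under 0.05), the grey band runs from the 25th (-0.32) to the 75th (0.54) percentile of all 33718 tested probes and the grey line is their median of 0.05. The points of Ifit3 and Oasl2 lie to the right of the band, that of Irf1 A_51_P146103 lies inside its right edge and that of Stat2 lies to its left.

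The median difference of all tested probes was 0.05, with quartiles of -0.32 and 0.54 and with 5th and 95th percentiles of -0.64 and 1.12, between which all 8 member probes lay. Irf1 A_51_P146103, at 0.52, lay under the upper quartile, so as large a rise was common on these arrays. Only Ifit3 and Oasl2 lay above the upper quartile, and Stat2 lay below the lower one. The genotypes did not overlap, with the mutant above, for 2 of the 8 tested probes, against 21.6% of all probes with a value on every array. The differences of all probes also moved with brightness. Probes with a mean level under -4, where Ifit1 lay, had a median difference of 0.47 and 35.0% were called higher. Probes from -4 to -2, where Irf7, Ifit3 and Irf1 A_52_P175685 lay, had a median of 0.23 and 24.4% were called higher. Probes from -2 to 0, where Stat2, Mx2, Oasl2 and Irf1 A_51_P146103 lay, had a median of 0.0031 and 19.6% were called higher.

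The calls depended on how the arrays were scaled. Median scaling moved the median difference of all probes from 0.05 to -0.17 and normexp background correction moved it to -0.23. Relative to that median, Ifit3 was higher by 0.58 with the 75th percentile, by 0.58 with median scaling, by 0.51 with cyclic loess and with quantile normalization, and by 0.47 with normexp. Relative to the same medians Oasl2 was higher by 1.00, 1.00, 0.97, 1.00 and 0.86 and Irf1 A_51_P146103 by 0.46, 0.46, 0.55, 0.57 and 0.70. These 3 probes stayed above 0 under all 6 ways of scaling or background correction. None of the 3 passed under all 6, and the cause was not tested. Oasl2 passed with the 75th percentile, median scaling (0.0498), spike-in scaling and quantile normalization, Irf1 with the 75th percentile, cyclic loess and quantile normalization, and Ifit3 with the 75th percentile and spike-in scaling.

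**Figure D3:**
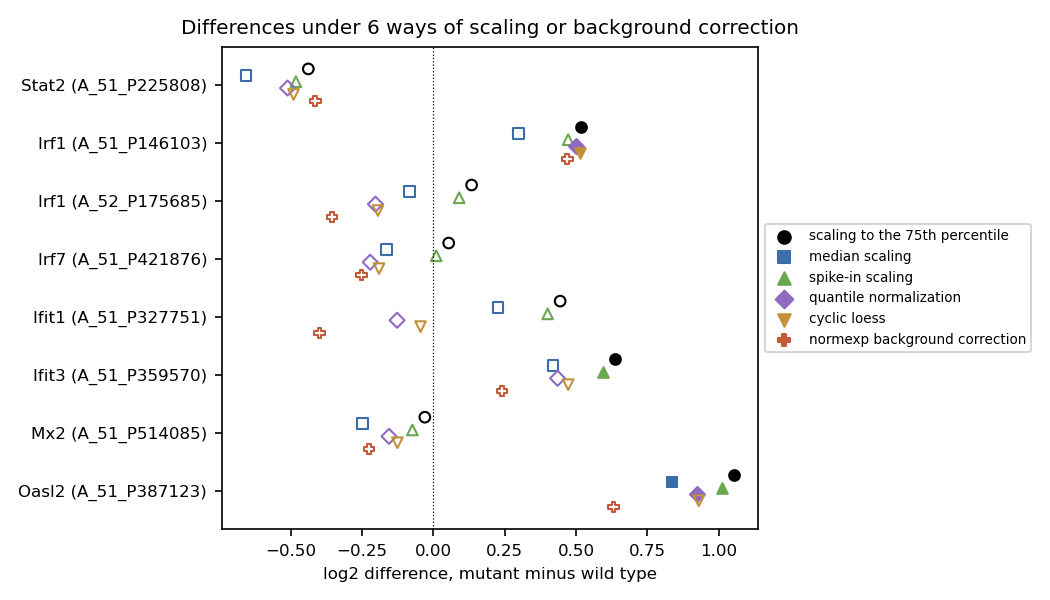
Log2 difference, mutant minus wild type (horizontal axis), of the 8 tested probes under 6 ways of scaling or background correction. Filled symbols passed (limma adjusted p under 0.05) and open symbols did not. Irf1 A_51_P146103, Ifit3 and Oasl2 lie right of 0 under all 6, Stat2 and Mx2 lie left of 0 under all 6, and Irf7, Ifit1 and Irf1 A_52_P175685 change sides.

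The other genes of the interferon pathway were listed by role, 128 in number, of which 120 had a probe and 110 could be tested through their brightest passing probe. Of these 110, 53 were higher and 2 lower in the mutant, and 55 did not pass. Of the 110, 2 genes, Ifnk and Gbp6, were well above background on mutant arrays only, and without them 51 of 108 were higher. Ifna4, Ifna2, Rsad2 and Tlr7 also needed mutant arrays to reach the filter and stayed in that count. When probes had to be well above background on all 8 arrays, 44 of 98 pathway genes were higher and 2 lower. Of all 28853 probes that passed that filter, 5353 were higher and 3863 lower. The median difference of the 110 was 0.58, against 0.03 for all 23155 genes tested, of which 21.6% were called higher and 12.4% lower. Over all probes the share called higher ran from 2.65% at mean levels above 4 to 35.0% under -4. The pathway genes were not compared with genes of the same brightness, and the lists were chosen with earlier results of these data known. Median scaling gave 32 higher and 8 lower of the 110, against 4491 and 8768 of all 33718 probes. Normexp gave 18 higher and 2 lower, against 2092 and 3097 of all probes. Without mutant replicates 1 and 4 together, 10 were higher and 0 lower, against 1319 and 220 of all probes. At an unadjusted p under 0.05 in limma that fit gave 45 higher and 2 lower of the 110. The count of all probes at that threshold is not given here, so these counts have no share beside them.

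All 6 receptor genes were higher, with a median difference of 0.85. Ifnar2, a chain of the type I receptor, went from -1.47 ± 0.17 to -0.32 ± 0.40 (SD, n = 4 each), a difference of 1.15 with a limma adjusted p of 0.00487, and its second probe gave 0.76 with an adjusted p of 0.0125. Ifnar1, the other chain, was higher by 0.51 (adjusted p = 0.0306). Among the type II receptor chains, Ifngr1 was higher by 0.61 (adjusted p = 0.0097) and Ifngr2 by 0.85 (adjusted p = 0.00616), although the second Ifngr2 probe, at 0.70, did not pass (adjusted p = 0.0799). Ifnlr1, which binds lambda interferons, was higher by 0.84 (adjusted p = 0.00347), and Il10rb, which is shared with the receptor of interleukin 10, by 1.24 (adjusted p = 0.00133). All 6 differences were above 0 under every scaling tried, and 4 to 6 of them passed, whereas 1 passed without mutant replicates 1 and 4. The call of Ifnar1 ended when any 1 of the 4 mutant arrays was left out (adjusted p from 0.0526 to 0.0761), and those of the other 5 receptors held in all 8 such fits.

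Below the receptors, 4 of 5 kinases and transducers were higher. The kinase Jak1 was higher by 0.81 (limma adjusted p = 0.0047) and the kinase Jak2, which serves the type II receptor, by 0.73 (adjusted p = 0.00612). Tyk2, the kinase of Ifnar1, differed by -0.19 and did not pass (adjusted p = 0.593). Irf9, which binds DNA in a complex with Stat2, was higher by 0.63 (adjusted p = 0.0196). Irf9 lost its call without mutant replicate 1 (adjusted p = 0.0537) and without mutant replicate 4 (adjusted p = 0.0528), and under normexp it differed by 0.31 and Jak2 by 0.40, neither of which passed. The Stat2 difference of -0.44 given above stands beside these values.

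Of 12 ligands 4 were higher, and the median was 0.31. Ifna4 and Ifna2, which belong to the alpha interferons, were higher by 1.91 (limma adjusted p = 0.0013) and 1.64 (adjusted p = 0.000759), and they lay well above background on 2 and 1 of the 4 wild-type arrays, with wild-type replicate 1 at the floor for both, so their sizes depend on where the floor was set. Ifnk, an interferon of skin cells, lay well above background on 0 of 4 wild-type arrays, with wild-type replicate 1 at the floor. It was 2.19-fold higher in the mutant, by means of -5.83 and -4.70. It entered the test only through the mutant arrays, so its call is no support, and of the other 11 ligands 3 were higher. When probes had to be well above background on all 8 arrays, 8 ligands were tested and 0 were higher. Ifna4 and Ifna2, like Ifnk, needed mutant arrays to reach the filter of 4 arrays. These low signals were sensitive to the background correction, since normexp gave -0.11 for Ifna2 and -0.32 for Ifnk and called 0 of the 12 ligands in limma, with 0 higher and 2 lower at an unadjusted p under 0.05. The alpha interferon genes are near copies of each other, so their probes may not be specific to 1 gene.

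Among the other IRF factors 2 of 5 were higher, with a median of 0.07. Irf8, a factor of macrophages and dendritic cells, was higher by 0.73 (limma adjusted p = 0.0264) and Irf5, a factor downstream of Toll-like receptors, by 0.82 (adjusted p = 0.022). Irf8 lost its call when wild-type replicate 1, 2 or 3 or mutant replicate 1 was left out (adjusted p up to 0.0656), and Irf5 when wild-type replicate 2 or 3 was (adjusted p up to 0.0537). Under normexp Irf5 differed by 0.31 and did not pass. Irf3, which turns on the first interferon genes, differed by -0.21 (adjusted p = 0.499) and Irf2, a competitor of Irf1, by 0.07 (adjusted p = 0.866). Among the inhibitors 2 of 6 were higher, with a median of -0.03. Usp18, which removes Isg15 from proteins and blocks Ifnar2 signalling, was higher by 0.97 (adjusted p = 0.0203) and Socs3, a feedback inhibitor of Jak kinases, by 0.85 (adjusted p = 0.0154). Usp18 lost its call when wild-type replicate 2 or 3 was left out (adjusted p up to 0.0561), and under normexp Usp18 differed by 0.46 and Socs3 by 0.49, neither of which passed. Socs1, the main feedback inhibitor of interferon gamma signalling, differed by 0.09 (adjusted p = 0.707) and Pias1, a SUMO ligase, by -0.26 (adjusted p = 0.175).

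Among the sensors and adaptors 4 of 13 were higher and 1 lower, with a median of 0.15. The RNA sensor Ifih1 was higher by 0.81 (limma adjusted p = 0.0153) and the endosomal RNA sensor Tlr7 by 0.95 (adjusted p = 0.0175). Under normexp Ifih1 differed by 0.30 and Tlr7 by -0.087, and neither passed. Tlr7 also lost its call under quantile normalization (0.49), under cyclic loess (0.53) and without mutant replicate 3 (0.86, adjusted p = 0.0542). Dhx58, a regulator of the RNA sensors, was lower by the test, with a difference of -0.71 (adjusted p = 0.0136). The other pathway gene called lower was the antiviral effector Daxx, which is named here because it completes the count and was chosen after its values were seen, with a difference of -0.45 (adjusted p = 0.0246).

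The antiviral effectors were the largest list, with 24 of 42 higher, 1 lower and a median of 0.66. Ube2l6, the enzyme that conjugates Isg15, was at -3.71, -3.85, -3.60 and -3.71 in wild type and -1.85, -1.82, -2.00 and -1.90 in the mutant, a difference of 1.83 (limma adjusted p = 0.000183). The RNA-activated kinase Eif2ak2 was higher by 1.56 (adjusted p = 0.00031). Rsad2, which makes a chain-terminating nucleotide, was dim and higher by 0.73 (adjusted p = 0.0113), with -0.24 under normexp, and its call was lost under quantile normalization (0.31) and cyclic loess (0.30). Other familiar interferon-induced genes did not pass, namely Isg15 at 0.20 (adjusted p = 0.334), Mx1 at 0.30 (adjusted p = 0.373) and Oas1a at 0.29 (adjusted p = 0.152). Ube2l6 and Eif2ak2 kept their calls in all 8 fits that left out 1 array and under all 12 other settings, although normexp lowered the differences to 0.74 and 0.72.

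Among the interferon gamma targets 7 of 21 were higher, with a median of 0.58. The guanylate-binding proteins Gbp2 and Gbp7 were higher by 0.78 (limma adjusted p = 0.00487) and 1.10 (adjusted p = 0.0163). Gbp6 lay well above background on 0 of 4 wild-type arrays, with wild-type replicate 1 at the floor. It was 2.29-fold higher in the mutant, by means of -5.70 and -4.50, but differed by -0.26 under normexp. Gbp6 too entered the test only through the mutant arrays, and of the other 20 targets 6 were higher. Gbp7 differed by 0.059 under normexp and did not pass there or under cyclic loess (0.75).

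**Figure D4:**
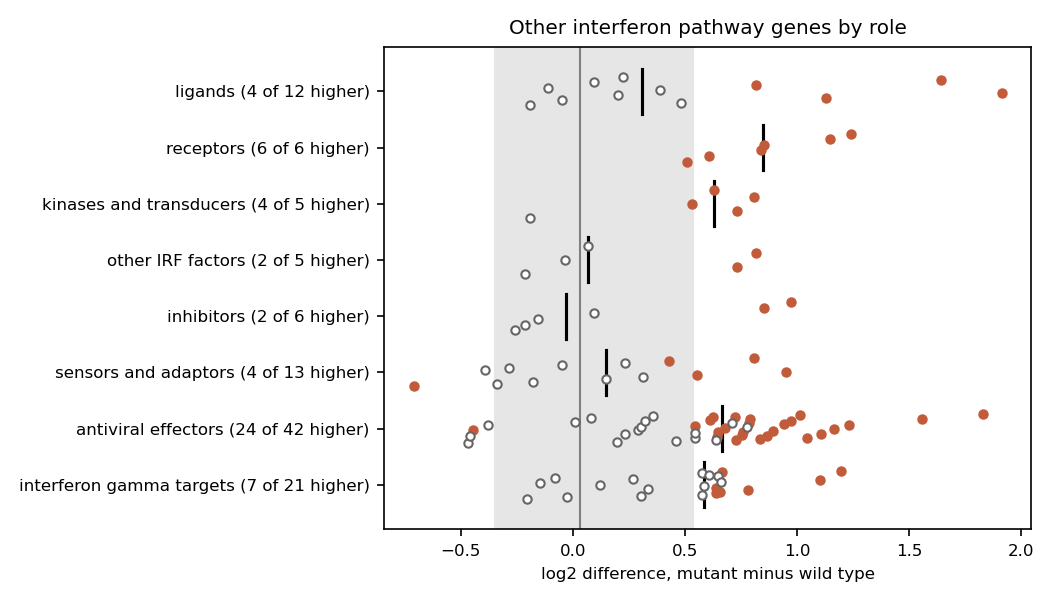
Log2 difference, mutant minus wild type (horizontal axis), of the 110 other interferon pathway genes by role, each through its brightest passing probe. Filled points passed (limma adjusted p under 0.05, in either direction), short black lines are list medians, the grey band runs from the 25th (-0.35) to the 75th (0.54) percentile of all 23155 tested genes and the grey line is their median of 0.03. All 6 receptors are filled, while most sensors and inhibitors lie inside the band.

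The ISRE string and the calls were counted together, with no test. Among pathway genes with a promoter window, 14 of 32 with the string were higher, or 43.8%, and 24 of 51 without it, or 47.1%. Over all tested genes with a window the shares were 28.0% of 539 with the string and 20.5% of 13808 without it. Among the members, Oasl2 and Irf1 (on A_51_P146103) were higher and held no ISRE match, and Ifit3 was higher and held 2. Ifit1, which held 2, Stat2, which held 1, and Irf7, which held none, did not pass.

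Some markers of testis cells moved with the genotype beside these genes. Of all tested genes, 21.6% were called higher and 12.4% lower. Of 12 macrophage markers 9 were higher, and their summed level, in units of the 75th percentile, was 43.5 to 88.9 in wild type and 51.1 to 94.1 in the mutant. These ranges overlapped. Aif1 made up most of the sum on every array and was the marker without a difference above 0, against 11 with one. With this contrary marker removed the ranges were 10.0 to 11.4 and 14.5 to 35.8, so their separation rests on its removal. Of 10 Sertoli markers 9 were higher, with sums of 61.4 to 96.1 and 136 to 207. Of 10 spermatocyte and spermatid markers 4 were lower, with sums of 1861 to 2449 and 1466 to 2028. Of 6 Leydig markers 2 were higher, with sums of 72.5 to 131 and 140 to 239. Of 5 T and natural killer cell markers, 4 B cell markers and 6 endothelial markers 1, 1 and 2 were higher and of 6 spermatogonial markers 1 was higher. With so few markers, these counts do not set those cell types apart from all genes. Of 5 peritubular markers 0 were called in limma, also at an unadjusted p under 0.05. Of 2 tested plasmacytoid dendritic cell markers 1 was lower, and their defining marker Siglech and the natural killer cell marker Ncr1 were not well above background on any array. The part of these cell types in the interferon results was not tested.

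Epididymal transcripts, from the duct next to the testis, were uneven across the mutant arrays. Of 4 tested epididymal markers 3 were higher, and their summed level was 0.609 to 0.859 in wild type and 30.4, 1.77, 1.25 and 19.4 in mutant replicates 1 to 4. Mutant replicate 1 was also the highest array for Irf1 A_51_P146103 and Ifit3, and mutant replicate 4 was the highest for Oasl2. With mutant replicates 1 and 4 left out, the difference was 0.36 for Irf1 (limma adjusted p = 0.197), 0.48 for Ifit3 (adjusted p = 0.11) and 0.76 for Oasl2 (adjusted p = 0.198), so that all remained above 0 and none passed. In that fit 1319 of all probes were called higher and 220 lower, against 7160 and 3655 with all arrays.

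The tested genes whose log2 profile over the 8 arrays was nearest to each member, by the root mean square difference after centring, were found among 18030 genes with a symbol. They were Depdc7 for Stat2 (0.12), Zfp266 for Irf1 (0.068), Tbc1d17 for Irf7 (0.055), Ror1 for Ifit1 (0.11), 0610040J01Rik for Ifit3 (0.089), Epb41l1 for Mx2 (0.043) and Cr1l for Oasl2 (0.088). No interferon pathway gene was nearest to any member. Tested pathway genes were only 110, few beside the 18030 compared, and only the nearest gene was taken, so nothing is concluded from that. Nearest to the mean profile of the members were Ints3 (0.059), Mgl2 (0.062) and Nt5dc3 (0.073).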

How the data were processed

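RNA of 8 testis samples, 4 of each genotype, was measured on single-colour Agilent arrays, and genotype and replicate were taken from the labels. Total RNA was extracted with Trizol and made into Cy3-labelled cRNA, per the labels' protocols. Per the submitters' processing notes, the scans were read with Agilent Feature Extraction 9.5.3.1. The deposited intensity values are processed signals that the authors left unscaled between arrays, background-subtracted and detrended within each array per the file headers. The deposited value table equals these intensities within a relative tolerance of 1e-04 for all 45018 features, so it is linear and uncentred, and its column medians ran from 97.8 to 205.9.

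From these intensities, each signal was divided by the array's 75th percentile, raised to a floor of 0.0144 of it and put on the log2 scale. Outlier spots were dropped and repeated spots of a probe averaged. A probe needed 4 or more of the 8 arrays well above background and 3 values in each genotype. The test was limma (3.58.1, under R 4.3.3), two-sided, with Benjamini-Hochberg adjustment over 33718 probes and a threshold of 0.05. The procedure was tested on simulated data. A gene in a list was represented by its brightest passing probe. Probes were named through RefSeq accessions (22951), other current symbols (9768) or the name in the file (8455). Probe coordinates were taken from the array annotation (mm7) and promoters from RefSeq. The number of arrays limits the precision.

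The genes and lists were chosen with earlier results of these data known. Named were all members, 19 pathway genes whatever their result, the 3 genes with the smallest p in each pathway list and the nearest profiles. Some genes that this rule names are not reported here. Alternatives were 4 other scalings, normexp background correction with an offset of 50, 2 other filters, array weights, a replicate block, 1 probe per gene, another variance fit, and leaving out arrays. Slide could not be used as a block because each genotype lay on its own slide.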

Additional observations from a re-analysis of the deposited data

Results flagged for a closer look

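In 2 of the 16 groups of 4 arrays tested (8 probes in 2 genotypes), 1 array stood apart from the other 3 by Dixon's gap test, which chance alone does in about 1 in 20 groups. Stat2 A_51_P225808 was at -1.58 in wild-type replicate 1, against -0.50 to -0.38 in the other wild-type arrays. Ifit1 A_51_P327751 was at -4.72 in wild-type replicate 2, against -5.58 to -5.43 in the other wild-type arrays. Each of the 2 arrays decided whether its probe passed: without it Stat2 was called lower (-0.72) and Ifit1 higher (0.64).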

How the results depend on the processing

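Of the 8 member probes, 3 were higher and 0 lower. With no filter on dim probes 3 of 11 were higher, but Oasl2 did not pass (limma adjusted p = 0.0631). Ifit2 A_51_P161021, with 3 wild-type arrays at the floor, passed there instead (limma adjusted p = 0.0324). Median scaling and cyclic loess each called 1 higher, and normexp 0 (2 at an unadjusted p under 0.05 in limma). Leaving out mutant replicates 1 and 4 together called 0 higher (1 unadjusted). The unadjusted counts have no count of all probes at that threshold beside them. Array weights called 1 lower, which was Stat2, and in that fit 10189 of all probes were called higher and 8424 lower. Leaving out 1 array gave 0 to 3 higher and 0 to 1 lower. Of the 110 pathway genes, 53 were higher and 2 lower. The higher calls were 32 under median scaling, 32 under quantile normalization, 31 under cyclic loess, 18 under normexp, 10 without mutant replicates 1 and 4, and 37 to 55 with 1 array left out. The lower calls were 8 under median scaling, 8 with array weights, 0 without mutant replicates 1 and 4, and 1 to 3 with 1 array left out. Reversed under normexp were Ifna2 (-0.11), Ifnk (-0.32), Gbp6 (-0.26), Tlr7 (-0.087) and Rsad2 (-0.24). The cause was not tested. Over all probes, 7160 were higher and 3655 lower, against 4491 and 8768 under median scaling and 2092 and 3097 under normexp. Quantile normalization gave 4354 and 3589, cyclic loess 4523 and 3006, and leaving out mutant replicates 1 and 4 gave 1319 and 220. With 1 array left out, 4782 to 7358 of all probes were higher and 1666 to 4411 lower, so the pathway counts changed along with the counts of all probes.

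Same-numbered arrays deviated together with correlations of 0.28, 0.24, 0.09 and 0.61, and wild-type replicate 3 correlated best with mutant replicate 2 (0.20), so the numbers were not taken to pair samples. With the replicate block, 3 member probes were higher and 0 lower (Oasl2 at an adjusted p of 0.00218 in limma), and 57 pathway genes were higher and 3 lower. In that fit 9242 of all 33718 probes were higher and 5913 lower. Signals near background limit Ifit1, Ifit2 and the low ligands. The floor set levels of Ifit2 and of Ifna4, Ifna2, Ifnk and Gbp6, and the sign for Ifit1 depended on the background correction and scaling.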
